A study of Rattus norvegicus with 8 samples.

Results

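The genes described here are those of the voltage-gated calcium channels and of the TRP channels of the A, C, M and V families. They were chosen by symbol: pore genes beginning Cacna1, without Cacna1g and Cacna1h, together with the alpha2delta, beta and gamma subunit genes and the Trpa1, Trpc, Trpm and Trpv genes. This gave 39 of the 14506 genes paired with a probe set of their own, 22 of them calcium channel subunits and 17 TRP channels, each measured by a single probe set. A further 7 genes whose current symbols fit the rule were not analysed here. The cells were ventricular cardiomyocytes isolated from newborn rats and kept in culture. They received a miR-222 precursor (4 arrays) or a scrambled control precursor (4 arrays), each at 0.4 µM by lipid transfection, and RNA was taken at 48 h. Both groups therefore carried a small RNA and the transfection reagent, and no untransfected cells were part of the comparison. The labels do not say whether the arrays came from separate cell isolations, so the p-values measure the spread between these arrays, which may be technical.

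Voltage-gated calcium channels open when the membrane depolarises. In the ventricle the L-type channel, with the pore encoded by Cacna1c, lets in the calcium that triggers release from the sarcoplasmic reticulum and so starts each contraction. The pore is joined by a beta subunit, which helps bring it to the surface and shapes its gating, and by an alpha2delta subunit on the outer face, while gamma proteins are further partners in some tissues. TRP channels are cation channels opened by receptors, lipids, temperature, stretch or calcium itself. Several TRPC channels are known for calcium entry that can act on calcineurin and NFAT in cardiac growth.

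The added microRNA is shown first because every comparison below turns on it. The mature strands of rat miR-222 and of its relative miR-221 lie on chromosome X of the GRCr8 assembly and were read from RefSeq, with the seed (bases 2 to 8) in capitals and all others in lower case. The 3p strands of miR-222 and miR-221 share the seed GCUACAU, and the 5p strand of miR-222 has the seed GCUCAGU. The sequence of the commercial precursor was not given in the sources used here.
rno-miR-222-3p: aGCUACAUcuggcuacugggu
rno-miR-221-3p: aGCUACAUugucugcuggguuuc
rno-miR-222-5p: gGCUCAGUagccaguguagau

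Values are log2 intensities, differences are log2 fold changes (miR-222 minus control), each with its standard error (SE) from a limma fit over all probe sets, and n = 4 in each group throughout. Markers of the labelled cell type were bright: all 12 cardiomyocyte markers examined, such as Tnnt2, Myh6 and Ryr2, lay above the median level of all probe sets (7.71 log2 units). All 6 smooth muscle markers and 7 of 10 fibroblast markers did so too, so that level alone does not tell these cells apart. Mean levels were 11.80 to 13.60 for cardiomyocyte, 8.24 to 13.22 for smooth muscle and 7.44 to 11.45 for fibroblast markers. The array medians were 202 to 219 intensity units, and 4 arrays a group limit the precision. Among the miR-222 arrays, replicates 2 and 3 stood somewhat apart. By Dixon's test for a single far value at the 95% level, replicate 3 stood out in 386 genes and replicate 2 in 284. The other miR-222 arrays did so in 117 and 119 genes, and the control arrays in 113 to 262. Limma gave replicates 2 and 3 array weights of 0.57 and 0.59, against 1.48 and 1.25 for replicates 1 and 4. Replicate 3 was the miR-222 array farthest from control in 4 of the 6 channel genes that changed. Results that depended on it are given with and without it.

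Cells given miR-222 had more transcript of the P/Q-type pore gene Cacna1a, of the auxiliary subunit genes Cacna2d2 and Cacng6 and of the channel kinase gene Trpm7. They had less of Cacnb2, a beta subunit gene, and of the cation channel gene Trpc1. The L-type pore gene Cacna1c did not pass the test, with a difference of 0.00 (SE 0.04). In all, 4 of the 39 genes were higher and 2 were lower at an adjusted p under 0.05 in limma. That is 15.4% of these genes, whereas 24.7% of all 14506 genes passed, 11.7% higher and 13.0% lower. The channel genes were thus not called more often than genes in general, and their median difference was 0.07 against 0.01 over all genes. The count of 4 higher genes was 3 without miR-222 replicate 3 or control replicate 1, 2 or 4, 2 without control replicate 3, and 5 without miR-222 replicate 1. The count of 2 lower genes was 3 without miR-222 replicate 3.

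**Figure D1:**
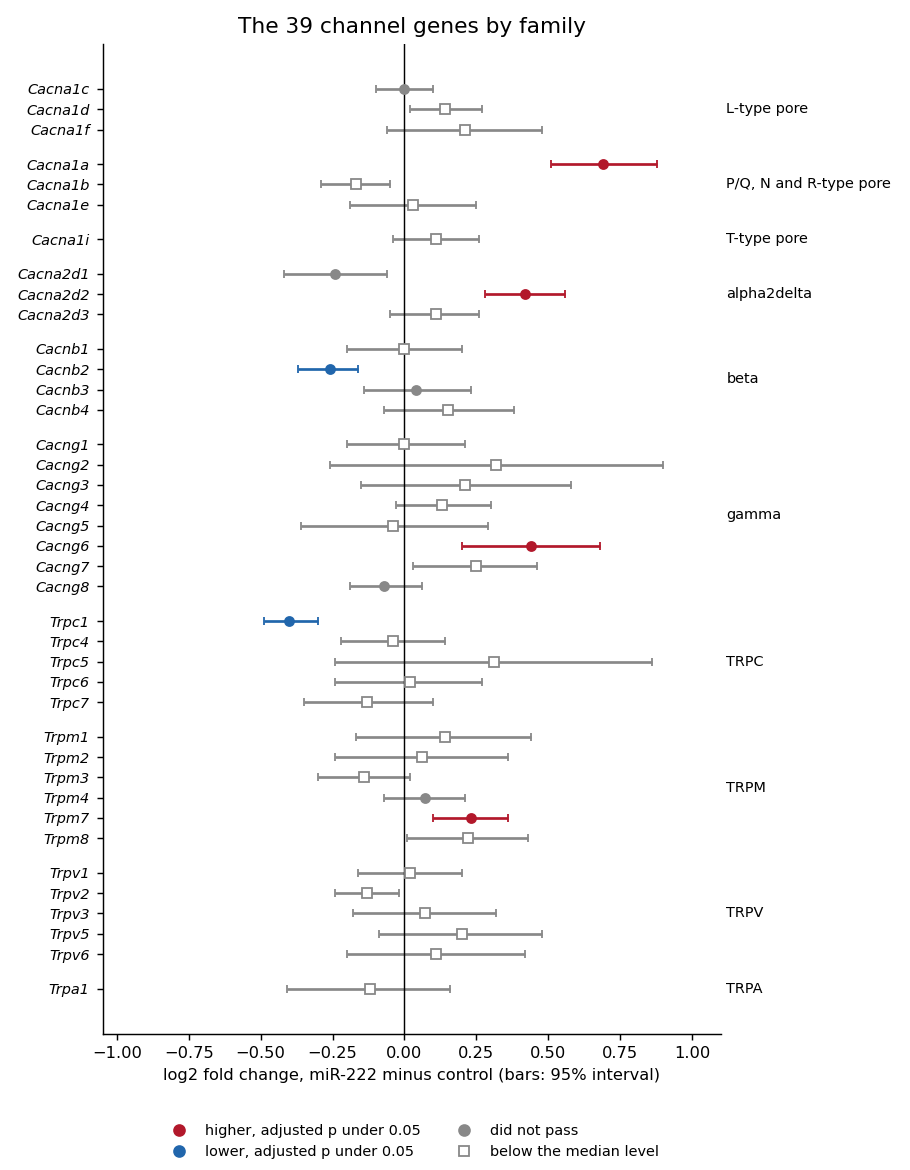
Log2 fold change of miR-222 minus control (x axis) for each of the 39 channel genes (rows, grouped by family), with bars for the 95% interval of the limma fit and n = 4 arrays per group. Red genes were higher and blue genes lower at an adjusted p under 0.05, and open squares mark genes below the median level. The 4 red and 2 blue genes all lie among the filled symbols.

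Precision differed with the level of the gene. Of the 39 genes, 11 lay at or above the median level of all probe sets and 28 lay below it. All 6 called genes were among the 11 brighter ones (54.5%, against 36.9% of all genes at or above that level). None of the 28 dimmer genes passed in limma, where 6.48% of all genes below that level did. At an unadjusted p under 0.05 there were 5 of these 28, Cacna1b, Cacna1d, Cacng7, Trpm8 and Trpv2. Over all genes at any level, 5412 of 14506 had such a p. The share among dim genes alone was not counted. The median SE was 0.06 in the brighter genes and 0.10 in the dimmer ones, and the median SD within groups was 0.08 and 0.15. No detection calls were used here, so the dimmer genes are given as values rather than as expressed or unchanged.

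**Figure D2:**
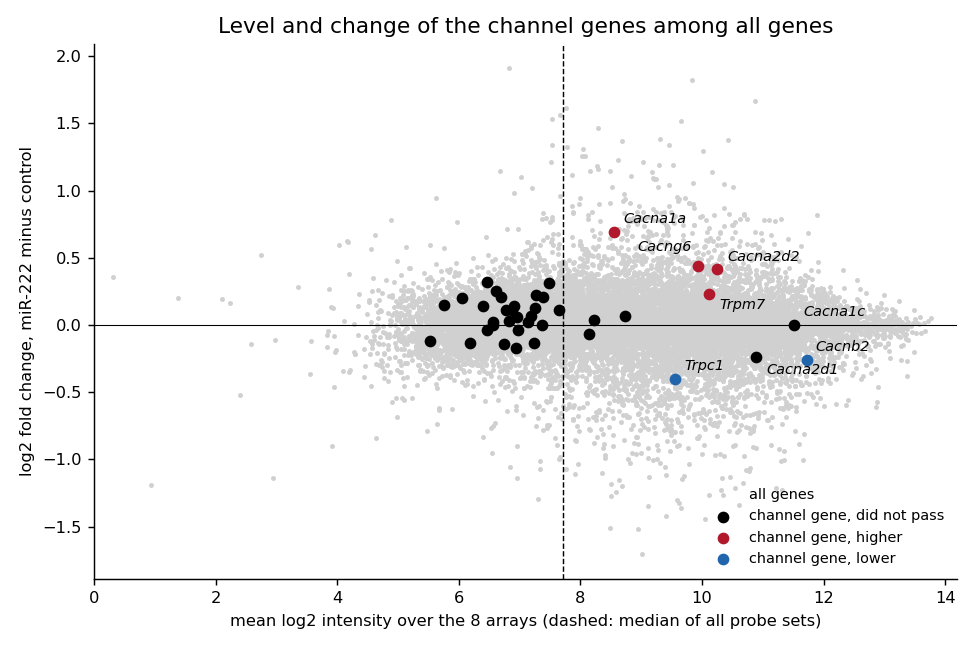
Mean log2 intensity over the 8 arrays (x axis) against the log2 fold change of miR-222 minus control (y axis) for all 14506 genes (grey) and the 39 channel genes (black did not pass, red higher, blue lower); the dashed line is the median level of all probe sets, 7.71. The 28 channel genes left of the line are all black.

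The pore gene with the largest difference was Cacna1a, which encodes the P/Q-type channel pore known for transmitter release at synapses. Its values were 8.81, 8.87, 9.15 and 8.81 in the miR-222 arrays, against 8.27, 8.25, 8.15 and 8.21 in the control arrays (probe set 10810089). Every miR-222 array lay above every control array, with replicate 3 the highest. The level rose 1.62-fold, a difference of 0.69 (SE 0.08, limma adjusted p = 0.000828). Without miR-222 replicate 3 the difference was 0.61, and the call held under every alternative that was run (largest adjusted p = 0.00413).

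The cardiac L-type pore gene Cacna1c (probe set 10865016) measured 11.52, 11.50, 11.55 and 11.50 with miR-222, against 11.52, 11.51, 11.45 and 11.59 in control cells. The groups overlapped completely. The difference was 0.00 with a 95% interval of -0.10 to 0.10, which leaves larger changes in either direction outside the interval. Cacna1d, a second L-type pore gene with a role in pacemaking, was dim, at 6.87, 7.09, 7.01 and 6.96 with miR-222 and at 6.86, 6.82, 6.89 and 6.79 in control cells. Its difference of 0.14 did not pass (limma adjusted p = 0.113). Cacna1f, the L-type pore gene of the retina, measured 7.49 ± 0.19 with miR-222 and 7.27 ± 0.18 in control cells (SD), a difference of 0.21 that did not pass (limma adjusted p = 0.280).

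Of the other pore genes, Cacna1b, which encodes the N-type pore of neurons, measured 6.83, 6.81, 6.85 and 6.94 with miR-222, against 6.99, 7.04, 7.12 and 6.95 in control cells. The groups nearly met, and the difference of -0.17 (SE 0.05) missed the threshold (limma adjusted p = 0.0598). It passed when p-values were adjusted over named genes alone (adjusted p = 0.0463). Cacna1e, of the R-type pore, and Cacna1i, of a T-type pore, differed by 0.03 and 0.11 and did not pass.

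The auxiliary alpha2delta genes, whose products raise the surface density of calcium channels, gave a rise in Cacna2d2. Cacna2d2 (probe set 10912917) measured 10.36, 10.40, 10.56 and 10.48 with miR-222, against 10.04, 10.01, 9.94 and 10.13 in control cells. The groups were well separated and the level rose 1.34-fold, a difference of 0.42 (SE 0.06, limma adjusted p = 0.00239). It passed under every alternative that was run (largest adjusted p = 0.0102).

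Cacna2d1 (probe set 10860374), an alpha2delta subunit gene of the heart and skeletal muscle, measured 10.87, 10.83, 10.52 and 10.82 with miR-222, against 11.02, 10.98, 11.00 and 11.01 in control cells. All miR-222 arrays lay below all control arrays, yet replicate 3 was far lower than the other 3. The difference of -0.24 (SE 0.08) did not pass (limma adjusted p = 0.0652). Without that array the difference was smaller, at -0.16, but its error shrank to 0.037 and it passed (adjusted p = 0.0249). It also passed with dim probe sets left out and with a mean-variance trend and robust variances (adjusted p = 0.0252 and 0.0222). Cacna2d3 differed by 0.11 and did not pass.

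Among the beta subunit genes, Cacnb2 (probe set 10796522), which encodes the main beta subunit of the cardiac L-type channel, was the member that fell. Its values were 11.68, 11.57, 11.52 and 11.60 with miR-222, against 11.85, 11.84, 11.84 and 11.90 in control cells. The groups did not overlap, and the level with miR-222 was 83.3% of control, a difference of -0.26 (SE 0.04, limma adjusted p = 0.00482). The call held under every alternative that was run (largest adjusted p = 0.0182). Cacnb3 (probe set 10899023), a beta subunit gene of brain and smooth muscle, measured 8.15, 8.44, 8.22 and 8.16 with miR-222 and 8.12, 8.26, 8.10 and 8.31 in control cells. Those groups overlapped, and the 95% interval of the difference was -0.14 to 0.23. Cacnb1, of the skeletal muscle channel, and Cacnb4, a neuronal form, were dim and differed by 0.00 and 0.15.

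In the gamma family the 8 genes gave 1 call. Cacng6 (probe set 10718556), which encodes a gamma protein of striated muscle, measured 10.00, 10.08, 10.48 and 10.06 with miR-222, against 9.74, 9.81, 9.67 and 9.65 in control cells. The groups did not overlap, and replicate 3 was again the highest array. The level rose 1.35-fold, a difference of 0.44 (SE 0.10, limma adjusted p = 0.0224). Without replicate 3 the difference was 0.33 and passed, whereas leaving out control replicate 1, 3 or 4 ended the call (adjusted p = 0.0532 to 0.0594).

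Cacng6 lies next to Cacng8, and Cacng8 next to Cacng7, on rat chromosome 1 in the GRCr8 assembly. Cacng8, whose product is a regulator of AMPA receptors in the brain, measured 8.17, 8.06, 8.19 and 8.03 with miR-222, against 8.10, 8.14, 8.23 and 8.24 in control cells. These groups overlapped (difference -0.07, 95% interval -0.19 to 0.06). Cacng7 was dim, with a difference of 0.25 that did not pass (limma adjusted p = 0.110). Another trio of neighbours, Cacng1, the gamma subunit gene of the skeletal muscle channel, with Cacng4 and Cacng5 on chromosome 10, differed by 0.00, 0.13 and -0.04 and did not pass. Cacng2 and Cacng3, which encode AMPA receptor regulators of the brain, were dim and spread widely in control cells (SD 0.51 and 0.35), with differences of 0.32 (95% interval -0.26 to 0.90) and 0.21 (95% interval -0.15 to 0.58) that did not pass.

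**Figure D3:**
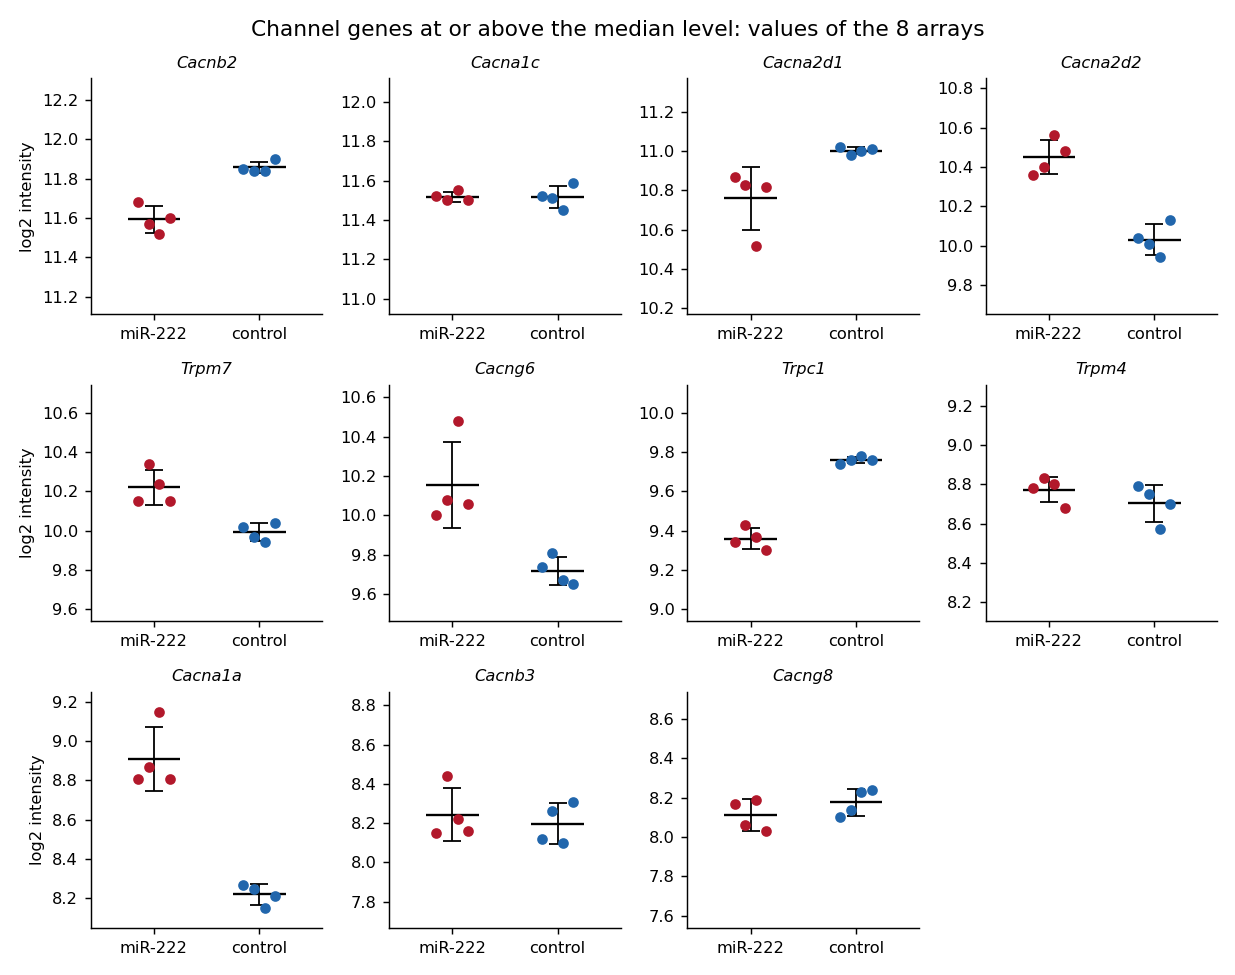
Log2 intensity (y axis, each panel spanning the same 1.2 log2 units) of the 11 channel genes at or above the median level; each point is an array, lines are means and bars are SD, n = 4 per group. Trpc1, Cacnb2 and Cacna2d1 lie below control with no overlap, and Cacna1a, Cacna2d2, Cacng6 and Trpm7 above it with none.

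Of the 5 TRPC genes measured, Trpc1 changed. It encodes a subunit that joins other TRPC proteins in channels opened by receptors and, by many accounts, by emptied calcium stores. Its values were 9.34, 9.43, 9.37 and 9.30 with miR-222, against 9.74, 9.76, 9.78 and 9.76 in control cells (probe set 10919339). The spread within either group was small beside the gap between them, with SDs of 0.05 and 0.02. The level with miR-222 was 75.8% of control, a difference of -0.40 (SE 0.04, limma adjusted p = 0.00048), the smallest adjusted p among the 39 genes. It passed under every alternative that was run (largest adjusted p = 0.00283).

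Trpc6, a channel gated by diacylglycerol and known from studies of cardiac hypertrophy in mice, was dim. It measured 6.84, 7.29, 7.13 and 7.30 with miR-222 and 6.97, 7.15, 7.24 and 7.11 in control cells, with a 95% interval of -0.24 to 0.27 for the difference. Trpc4, Trpc5 and Trpc7 were dim as well and differed by -0.04, 0.31 and -0.13. Trpc5 had the widest spread of the TRPC genes, from 7.05 to 8.13 in the miR-222 arrays and from 6.93 to 7.69 in the control arrays.

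Trpm7 (probe set 10849556), which encodes a channel for magnesium, zinc and calcium fused to a protein kinase, was the TRPM gene that rose. It measured 10.15, 10.34, 10.24 and 10.15 with miR-222, against 10.02, 9.97, 9.94 and 10.04 in control cells. The groups did not overlap, and the level rose 1.17-fold, a difference of 0.23 (SE 0.06, limma adjusted p = 0.0221). Leaving out miR-222 replicate 3 ended this call (adjusted p = 0.0523), and so did leaving out control replicate 2 or 3 (adjusted p = 0.0619 and 0.0613). Trpm4 (probe set 10721739), a channel opened by calcium that carries sodium and potassium in the conduction system, measured 8.78, 8.83, 8.80 and 8.68 with miR-222 and 8.79, 8.75, 8.57 and 8.70 in control cells. Its groups overlapped, and the 95% interval of the difference was -0.07 to 0.21.

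The remaining TRP genes were dim. Trpm1, Trpm2, the cold and menthol channel gene Trpm8 and Trpm3 differed by 0.14, 0.06, 0.22 and -0.14. The 5 TRPV genes lay between -0.13 for Trpv2 and 0.20 for Trpv5, a calcium channel gene of epithelia, and none of them passed in limma (1, Trpv2, at an unadjusted p under 0.05). Trpv5 passed when miR-222 replicate 1 was left out (0.32, adjusted p = 0.0453). Trpv6, another epithelial calcium channel gene, and Trpv3 differed by 0.11 and 0.07 and did not pass. Trpv1, the heat and capsaicin channel gene, and Trpa1, the irritant channel gene, differed by 0.02 and -0.12. Mean levels of the TRPV and TRPA genes were 5.52 to 7.23 log2 units, below the median of all probe sets.

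**Figure D4:**
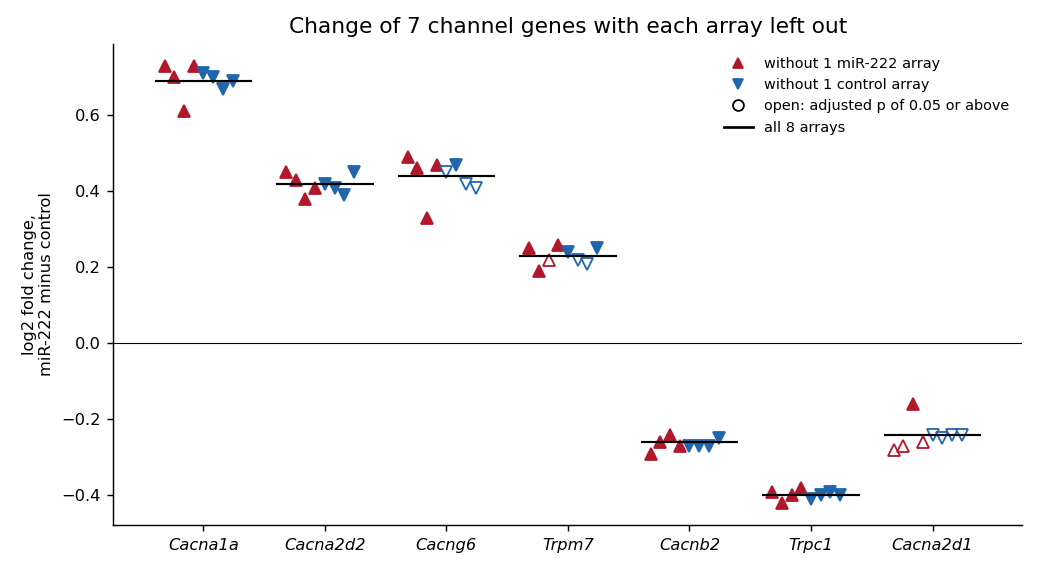
Log2 fold change of miR-222 minus control (y axis) for 7 channel genes (x axis), with all 8 arrays (black line) and with each array left out in turn (up triangles, 1 miR-222 array left out; down triangles, 1 control array left out). Open symbols have an adjusted p of 0.05 or above: Cacng6 and Trpm7 each show 3 open symbols, and Cacna2d1 is filled only without miR-222 replicate 3.

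Groups that do not overlap give a reading of the arrays without a model. The 4 miR-222 values lay all above the control values in 4 of the 39 genes, the same 4 that rose, and all below them in 4, which were Cacnb2, Trpc1, Cacna2d1 and Cacna1b. That is 8 of 39, where 33.3% of all genes had groups that did not overlap, 16.4% above and 17.0% below. The 6 called differences were 0.69, 0.44, 0.42, 0.23, -0.26 and -0.40, and the median size over all called genes was 0.32.

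Promoter sequence was looked at for the genes that moved, since Cacna2d2 and Cacnb2 both encode auxiliary subunits of calcium channels and went in opposite directions. RefSeq windows of 250 bases before to 50 after a start (GRCr8) were at hand for 31 of the 39 genes, in 35 windows. The GC box GGGCGG, searched on both strands, occurred in 33.1% of all 33469 windows. Among the channel genes it occurred in 16 of the 35 windows and in 14 of the 31 genes. All 5 called genes with a window held it in at least 1 window: Cacna1a, Cacna2d2, Cacnb2, Cacng6 and Trpm7. It was thus found in genes of either direction, but Trpc1, the other lower gene, had no window, so the lower side rests on Cacnb2. Genes that were not called held it too, such as Cacna1d with 10 matches. A second window of Cacnb2 (chr17:82596542-82596841, plus strand) held none. The E-box core CACGTG, which reads the same on both strands, occurred in 6.42% of all windows. It was in 2 of the 35 windows of channel genes, that of Trpm7 with 2 matches and that of Trpv3 with 1. The cAMP response element TGACGTCA, searched on both strands, was found in 1.83% of all windows and in 0 of the 35 windows of channel genes. The windows of Cacna2d2 (chr8:116950856-116951155, plus strand) and Cacnb2 (chr17:82472965-82473264, plus strand) are printed with the GC box in capitals, read here as CCGCCC, its reverse complement. The matches number 2 in each window, and in Cacnb2 they overlap. The window of Trpm7 (chr3:134588064-134588363, minus strand) has CACGTG in capitals.
Cacna2d2: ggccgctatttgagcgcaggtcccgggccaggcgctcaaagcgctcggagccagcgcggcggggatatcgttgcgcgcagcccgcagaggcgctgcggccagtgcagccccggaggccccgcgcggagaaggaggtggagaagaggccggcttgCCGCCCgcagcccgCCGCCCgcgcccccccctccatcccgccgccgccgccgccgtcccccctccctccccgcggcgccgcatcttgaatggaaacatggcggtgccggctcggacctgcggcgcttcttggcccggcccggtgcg
Cacnb2: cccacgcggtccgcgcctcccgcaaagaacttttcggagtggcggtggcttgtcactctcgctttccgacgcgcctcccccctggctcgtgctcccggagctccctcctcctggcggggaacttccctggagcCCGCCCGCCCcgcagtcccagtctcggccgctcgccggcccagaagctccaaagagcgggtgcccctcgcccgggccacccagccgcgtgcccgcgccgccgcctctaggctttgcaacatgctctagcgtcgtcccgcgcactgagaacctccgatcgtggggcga
Trpm7: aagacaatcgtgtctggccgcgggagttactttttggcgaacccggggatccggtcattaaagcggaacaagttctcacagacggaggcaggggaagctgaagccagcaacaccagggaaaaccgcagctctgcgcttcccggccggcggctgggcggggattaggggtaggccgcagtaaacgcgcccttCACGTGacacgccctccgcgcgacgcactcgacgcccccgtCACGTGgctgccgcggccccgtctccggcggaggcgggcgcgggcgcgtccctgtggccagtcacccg

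Genes that work with these channels were counted against the same backgrounds of 24.7% of all genes and 36.9% of genes at or above the median level. Of 17 measured regulators of calcium channels, 15 of them at or above that level, 1 rose and 1 fell, which is 11.8% and below both shares. Calm3, a gene of calmodulin, the calcium sensor bound to the L-type pore, measured 11.85, 11.90, 11.81 and 11.85 with miR-222, against 11.54, 11.56, 11.55 and 11.46 in control cells, a difference of 0.33 (SE 0.04, limma adjusted p = 0.00137). Akap5, a scaffold that holds protein kinase A and calcineurin at the channel, measured 8.27, 8.04, 8.08 and 8.13 with miR-222, against 8.71, 8.54, 8.74 and 8.63 in control cells, a difference of -0.52 (SE 0.07, limma adjusted p = 0.0013). Neither pair of groups overlapped. Rrad and Gem, small GTPases that hold back the L-type channel, differed by 0.52 and 0.53 with large errors (SE 0.27 and 0.22) and did not pass. Rrad measured 9.97, 11.20, 10.85 and 10.20 with miR-222, against 9.87, 9.93, 9.96 and 10.38 in control cells. Gem measured 7.99, 8.94, 8.58 and 7.93, against 7.77, 7.68, 7.94 and 7.95. In both genes miR-222 replicates 2 and 3 were the high arrays. The list median was 0.01.

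Of 13 genes of store-operated entry and of IP3 receptors, 3 rose and 1 fell. That is 30.8%, between the 24.7% of all genes and the 36.9% of genes at or above the median level, where 11 of the 13 lay. Saraf, a brake on store-operated entry, measured 10.91, 11.02, 10.75 and 10.86 with miR-222, against 11.35, 11.36, 11.27 and 11.33 in control cells, a difference of -0.44 (SE 0.06, limma adjusted p = 0.00181). Itpr2, an IP3 receptor gene of cardiomyocytes, was dim, with means of 7.62 with miR-222 and 7.20 in control cells. It rose by 0.42 (SE 0.05, limma adjusted p = 0.00129), while the brighter Itpr1 (means 9.31 and 9.22) did not pass. Stimate, which promotes the action of STIM proteins, rose by 0.39 (SE 0.08, limma adjusted p = 0.0124). Orai1, the pore of store-operated channels, rose by 0.14 (limma adjusted p = 0.0452), a call that was lost when any single array was left out (adjusted p = 0.0671 to 0.123) and with the array medians made equal (adjusted p = 0.16). The store sensor gene Stim1 differed by 0.05 and did not pass. The list median was 0.06.

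Of 12 measured genes of calcineurin and NFAT signalling, 1 rose and 2 fell, so 3 of 12 passed, against 24.7% of all genes and 36.9% of genes at or above the median level, where 11 of the 12 lay. The counts were 0 and 4 with the array medians made equal and 3 and 4 with dim probe sets left out. Nfatc3, one of the transcription factors that calcineurin activates, measured 9.45, 9.27, 9.51 and 9.37 with miR-222, against 9.95, 9.89, 10.00 and 9.99 in control cells, a difference of -0.55 (SE 0.06, limma adjusted p = 0.000575). Ppp3r1, the regulatory subunit of calcineurin, fell by 0.28 (SE 0.05, limma adjusted p = 0.00488). Rcan2, a calcineurin regulator, rose by 0.21 (limma adjusted p = 0.0297), a call lost without any array but miR-222 replicate 2 or 3 (adjusted p = 0.0567 to 0.0758) and with the array medians made equal (adjusted p = 0.0902). Rcan1, a transcript known to be induced by calcineurin, differed by -0.21 and did not pass (limma adjusted p = 0.0894). The list median was 0.00. Of 6 relatives of the TRP and calcium channels outside the rule, such as the lysosomal channel gene Mcoln1, none passed in limma, and 0 had an unadjusted p under 0.05. Mcoln1 was the only 1 of the 6 at or above the median level. Of all genes below that level 6.48% passed, so a count of 0 in this list says little.

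**Figure D5:**
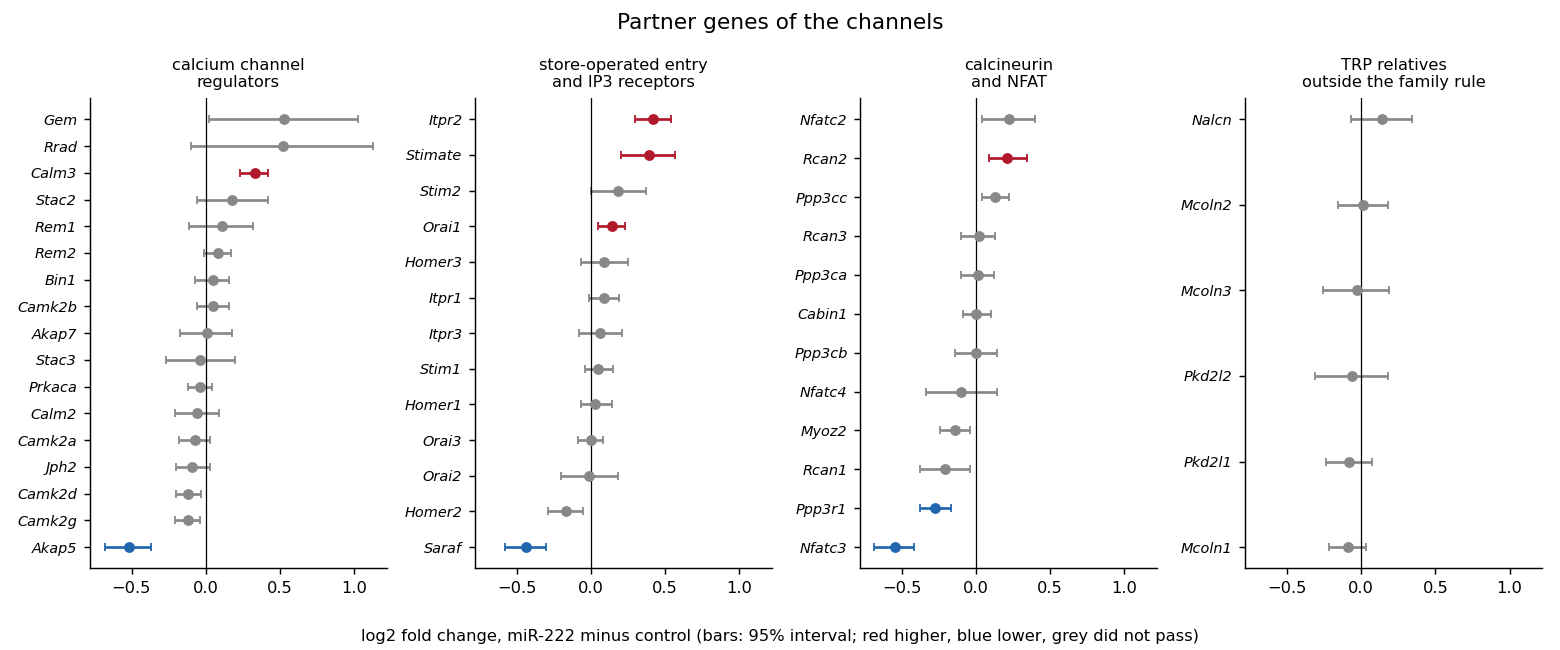
Log2 fold change of miR-222 minus control (x axis) of the measured genes in 4 lists of channel partners (rows), with bars for the 95% interval and n = 4 arrays per group; red genes were higher, blue lower, and grey did not pass. Akap5, Saraf, Ppp3r1 and Nfatc3 are the blue genes.

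In these bulk samples, fewer cells of a type and less RNA per cell cannot be told apart. Markers of other cells were therefore measured beside the channel genes. Of 10 fibroblast markers 3 were lower with miR-222 (1 without miR-222 replicate 1 or control replicate 3 or 4) and 7 did not pass. That is 3 of 10, against 24.7% of all genes and 36.9% of genes at or above the median level. The mean level of the fibroblast markers was 9.07 to 9.27 in miR-222 arrays and 9.32 to 9.55 in control arrays. Their list median difference was -0.18. Of 6 smooth muscle markers 1 was lower, Tagln, which fell by 0.91. The list mean over the 6 markers was 10.11 to 10.21 in miR-222 arrays and 10.26 to 10.31 in control arrays, with a list median difference of -0.01. Of 6 endothelial markers 1 was lower, Kdr, which fell by 1.51. The list mean over the 6 markers was 7.40 to 7.51 in miR-222 arrays and 7.69 to 7.77 in control arrays, while the list median difference was -0.06. Macrophage markers (1 of 8 higher, C1qa, which did not pass when any array but control replicate 4 was left out) had mean levels of 6.93 to 7.07 with miR-222 and 6.90 to 6.99 in control cells. Neuron and Schwann cell markers (1 of 6 lower, Dbh, with a difference of -0.46) lay at 7.64 to 7.79 with miR-222 and 7.60 to 7.78 in control cells. The shares called were 16.7% for the smooth muscle, endothelial, and neuron and Schwann cell lists and 12.5% for macrophage markers. Each was below the 24.7% of all genes, a share that covers all levels, and each rests on 1 call. The list median differences were 0.05 for macrophage markers and 0.11 for neuron and Schwann cell markers. The 12 cardiomyocyte markers had mean levels of 12.84 to 12.89 with miR-222 and 12.98 to 13.00 in control cells. Of them 4 were lower: Myh7 (-0.61), Nppa (-0.20), Gata4 (-0.17) and Ryr2 (-0.14). This count was 2 without miR-222 replicate 1 or control replicate 1, 2 or 3, and 8 with a mean-variance trend and robust variances. The 1 higher marker, Nkx2-5, passed in a single leave-out, that of miR-222 replicate 1. The share called was 41.7%, against 24.7% of all genes and 36.9% of genes at or above the median level, where all 12 lay. The list median difference of the 12 markers was -0.09. In 8 of the 12 every miR-222 value lay below every control value, against 17.0% of all genes. These markers spread less within groups than genes in general (median SD 0.03 against 0.10), so small differences can separate their groups. The share among genes of like spread was not counted. No marker was at 0, since the table holds no zeros, and the part of these differences in the channel results was not tested.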

How the data were processed

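Labelled RNA of 8 samples was hybridised to Affymetrix arrays. The deposited intensity values are linear, from 0.8 to 16339, and had been normalized by the authors; the sources used here do not give the method. Scanner files and detection calls played no part. The series text names another rat array, but the probe set identifiers pair with the platform annotation of Rat Gene ST, which supplied the symbols. Of 29170 probe sets, 15310 paired with 1 gene, 323 with several and 13537 with no name here. A gene was represented by its brightest probe set with that gene alone.

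Values were taken as log2 with no pseudocount. All probe sets entered limma 3.58.1 (lmFit, eBayes) under R 4.3.3. P-values were 2-sided, were adjusted over the whole table after Benjamini and Hochberg, and passed under 0.05. Intervals are 95% and not adjusted. The fit was tested on simulated data. Groups came from the transfection label; replicate numbers follow the listing order and pair nothing. The genes named are all 39 members and, of each partner list, up to 5 members with the smallest adjusted p past the threshold; others were chosen after their values were seen. Members and lists were chosen with earlier results of these data known. Alternatives were quantile normalization, equal array medians, a pseudocount of 16, a filter on dim probe sets, adjustment over named genes, trend and robust variances, array weights, and leaving out each array. Sequences came from RefSeq. Figures used matplotlib 3.10.9.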

Additional observations from a re-analysis of the deposited data

Results flagged for a closer look

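An array was set apart where its gap to the nearest array of its group, divided by the group's range, exceeded Dixon's 95% limit for 4 arrays. Chance gives about 1 such array in 20 groups, and 5 were found in the 78 groups examined. Trpc4 had a ratio of 0.921, with miR-222 replicate 2 at 6.65 and the other 3 at 6.35 to 6.37 log2 units. Cacna2d1 had a ratio of 0.855, with miR-222 replicate 3 at 10.52 and the others at 10.82 to 10.87. Cacna1i had a ratio of 0.857, with control replicate 3 at 6.66 and the others at 6.85 to 6.88. Trpm3 had a ratio of 0.856, with control replicate 4 at 6.94 and the others at 6.78 to 6.80. Cacnb2 had a ratio of 0.833, with control replicate 4 at 11.90 and the others at 11.84 to 11.85, which is a gap of little size.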

How the results depend on the processing

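The count of 4 higher channel genes was 4 under all 7 alternatives that kept the 8 arrays, and 2 to 5 when an array was left out, with 2 without control replicate 3. The count of 2 lower genes was 2 or 3 under every alternative. Cacna1a, Cacna2d2, Cacnb2 and Trpc1 passed under all 15 alternatives, whereas Cacng6 and Trpm7 were each lost under 3. No called difference changed sign. Of 39 genes, 34 kept their side of the threshold throughout. The count over all genes was 3580 and ranged from 2686 to 4217. The median difference over all genes was 0.01 as deposited and -0.01 with equal array medians. The second brightest probe set could not be tried, since each channel gene had a single probe set. No paired analysis was possible because the labels carry no replicate numbers. Dim genes had larger errors, with a median SE of 0.10 in the 28 channel genes below the median level against 0.06 in the 11 at or above it.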
